A study of Mus musculus with 18 samples.

Results

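Inhibitors of cyclin-dependent kinases (CDK) encoded by 6 genes were followed in mouse hepatocytes: Cdkn1b and Cdkn1c of the Cip/Kip family, and Cdkn2a, Cdkn2b, Cdkn2c and Cdkn2d of the Ink4 family. They were found by gene name among the wild-type counts and by the same Ensembl identifiers among the counts of Smo-floxed mice, and are 6 of 31053 genes. Hepatocytes were taken by collagenase perfusion from C57BL/6J wild-type mice of 3 months (Young) and 24 months (Old), and 48 h after partial hepatectomy (PH), the removal of 70% of the liver, in Young PH and Old PH, with 3 mice in each group. The young mice came from a commercial breeder and the old mice from the aged rodent colonies of the NIA, so that age and colony cannot be told apart. Male Smo flox/flox mice of 2 to 3 months received AAV8-TBG-Luc, a control virus (Smo (+), 1 mouse at each time), or AAV8-TBG-Cre (Smo (-), 2 mice at each time), in which the hepatocyte promoter TBG drives the recombinase that deletes Smo, the transducer of Hedgehog signals. PH followed 7 days after the virus.

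Cip/Kip proteins bind complexes of cyclins with CDK2 and brake entry into S phase, whereas Ink4 proteins bind CDK4 and CDK6 and keep them from cyclin D, which leaves the retinoblastoma protein able to hold E2F factors. Cdkn1b encodes p27Kip1 and Cdkn1c the imprinted p57Kip2. Cdkn2a encodes p16Ink4a, a widely used marker of senescence, and from another first exon p19Arf, which frees p53 from Mdm2. Cdkn2b encodes p15Ink4b, Cdkn2c p18Ink4c and Cdkn2d p19Ink4d. The adult liver is mostly quiescent, and hepatocytes return to the cell cycle after PH. In GRCm38, Cdkn2a (chr4:89274471-89294653) and Cdkn2b (chr4:89306299-89311039) are neighbors on the minus strand with 11645 bases between them. Cdkn2c lies farther along at chr4:109660876-109667189 on the same strand. Cdkn2d (chr9:21288410-21291407) and Cdkn1c (chr7:143458339-143461050) are also on the minus strand, and Cdkn1b (chr6:134920401-134925513) is on the plus strand. Counts per gene join p16Ink4a and p19Arf. The antisense gene Gm44732 shares 625 exon bases with Cdkn1c and had 0 counts in all 18 libraries.

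The promoters of the 3 inhibitors with the highest counts, all of which rose after PH in wild-type mice, are shown from RefSeq (GRCm38.p6), each from 250 bases before to 50 bases after a start site. Capitals mark matches on either strand to the E2F-type letters TTTCCCGC, TTTCGCGC, TTTGCCGC or TTTGGCGC, the cell cycle homology letters TTTGAA, or CCAAT, and no match overlapped another. Cdkn2c has 2 annotated starts, and gene counts do not tell which was used.
Cdkn1b, chr6:134920151-134920450, plus strand: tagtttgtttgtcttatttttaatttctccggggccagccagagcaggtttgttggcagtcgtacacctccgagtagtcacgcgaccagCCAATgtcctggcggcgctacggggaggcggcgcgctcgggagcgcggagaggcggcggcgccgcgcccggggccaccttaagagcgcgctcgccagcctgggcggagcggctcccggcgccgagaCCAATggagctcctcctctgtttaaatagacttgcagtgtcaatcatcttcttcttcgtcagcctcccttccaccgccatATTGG
Cdkn2c, upstream start, chr4:109666707-109667006, minus strand: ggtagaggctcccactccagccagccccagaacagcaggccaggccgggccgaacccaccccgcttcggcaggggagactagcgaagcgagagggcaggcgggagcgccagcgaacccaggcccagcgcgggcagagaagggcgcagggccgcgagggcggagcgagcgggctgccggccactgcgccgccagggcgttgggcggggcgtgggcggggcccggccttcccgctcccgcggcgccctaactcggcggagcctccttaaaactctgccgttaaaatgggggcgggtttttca
Cdkn2c, downstream start, chr4:109665323-109665622, minus strand: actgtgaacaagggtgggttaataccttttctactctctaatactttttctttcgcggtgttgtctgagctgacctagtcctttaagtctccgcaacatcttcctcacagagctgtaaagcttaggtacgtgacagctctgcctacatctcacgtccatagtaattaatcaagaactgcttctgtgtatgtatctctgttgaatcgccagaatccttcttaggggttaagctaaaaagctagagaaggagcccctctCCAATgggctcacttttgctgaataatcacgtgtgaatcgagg
Cdkn2d, chr9:21291160-21291459, minus strand: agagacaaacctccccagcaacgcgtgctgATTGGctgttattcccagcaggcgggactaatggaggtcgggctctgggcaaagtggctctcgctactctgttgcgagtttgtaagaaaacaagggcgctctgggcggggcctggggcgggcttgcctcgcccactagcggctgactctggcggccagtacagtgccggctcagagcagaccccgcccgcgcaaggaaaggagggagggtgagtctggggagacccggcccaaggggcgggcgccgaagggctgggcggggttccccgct
All capitals in these 4 windows are CCAAT matches: 3 in Cdkn1b, 1 at the downstream start of Cdkn2c and 1 in Cdkn2d. CCAAT was found in 37.4% of 32851 promoters, TTTGAA in 17.9% and an E2F-type match in 2.26%. Of the 7 promoter entries that 5 of the 6 members had, the E2F-type letters occurred in 1, the upstream start of Cdkn2a from which p19Arf is made, at base -99 from the start. The downstream start of Cdkn2a held 1 CCAAT match and the promoter of Cdkn2b 1 TTTGAA match.

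Levels were read as CPM, counts per 1000000 after TMM scaling (the factors edgeR uses for library composition), and across genes as RPKM, CPM per kilobase of exon. The libraries held 17089525 to 36646939 counts in genes in the wild-type table and 16835686 to 19151731 in the Smo table. All 8 hepatocyte markers were detected in every library. Depth differed with age, at 31729517 to 36646939 counts in Young and 31904790 to 33390355 in Young PH. Old had 17089525 to 23073217 counts and Old PH 19677035 to 20491030. The ages differed in the make-up of the libraries: read pairs outside genes were 26.0% to 33.9% of counted pairs in Young and 25.2% to 28.9% in Young PH, against 2.03% to 3.07% in Old and 3.11% to 3.74% in Old PH. The Smo (+) library also stood apart, with 22.5% of its counts from the mitochondrial genome, against 3.32% to 6.85% in the other 5 libraries of its table. Smo itself had 6.17 CPM in Smo (+), 1.42 and 3.29 CPM in Smo (-), 11.0 CPM in Smo (+) PH, and 1.51 and 1.20 CPM in Smo (-) PH. Each Smo (-) library was below the control of its time, but Smo was not called (adjusted p = 0.0531 before and 0.0539 after PH).

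**Figure D1:**
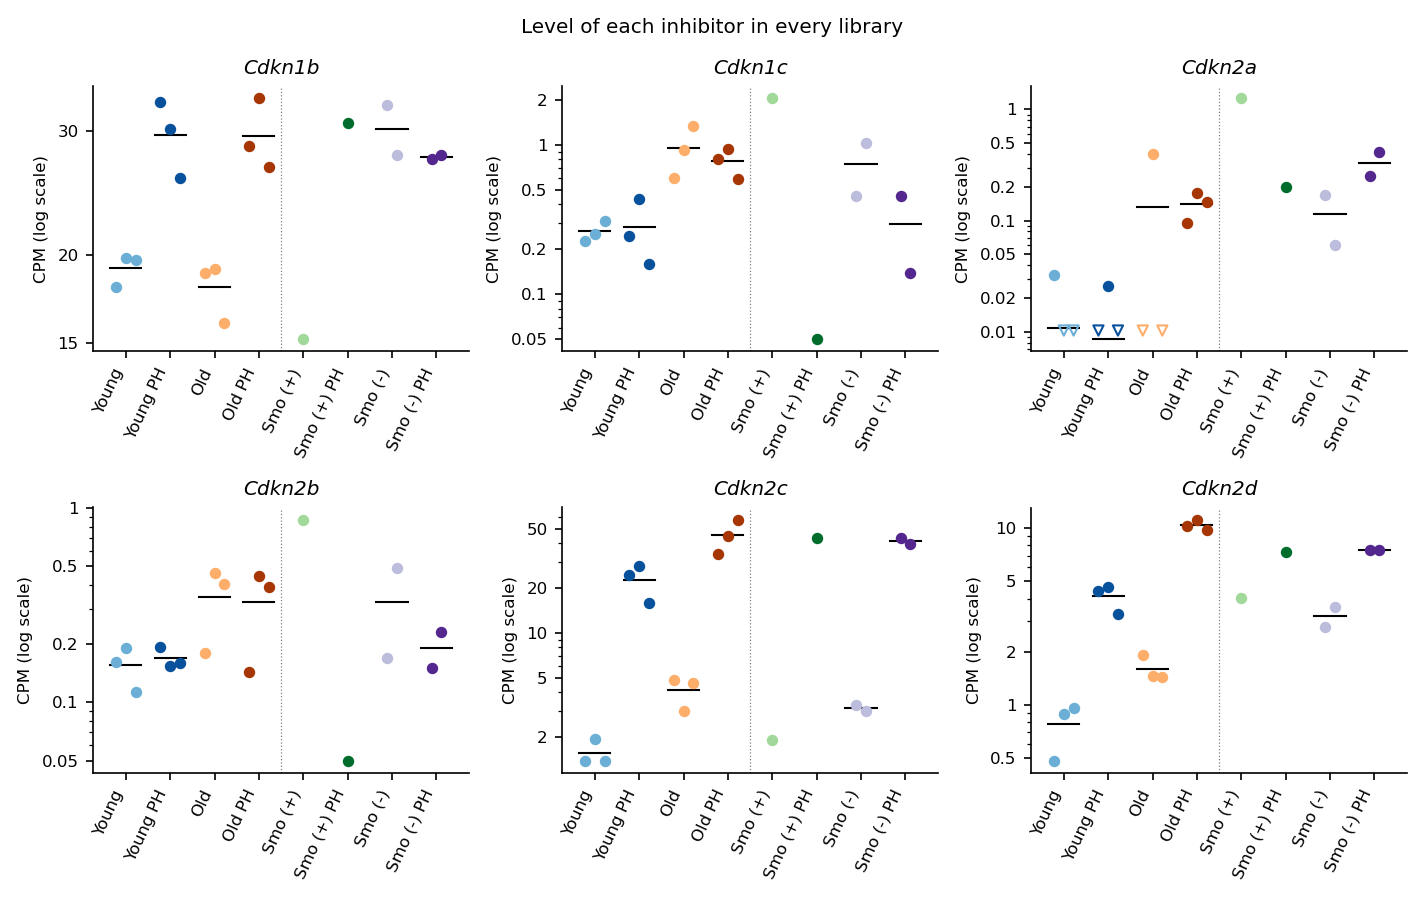
Level of each inhibitor in CPM on a log axis in 8 groups, 1 point per library. Black lines are group means where a group has more than 1 library, open triangles are libraries with 0 counts, and the dotted line parts tables that were scaled separately. Cdkn2c and Cdkn2d are higher at 48 h in every library than before PH in mice of the same kind, and Cdkn2a and Cdkn2b were at or below 0.487 CPM in every library but Smo (+).

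Per length, Cdkn1b was the most abundant member in every library before PH, at 3.52 to 4.35 RPKM in Young and Old, and Cdkn2c the most abundant in every library at 48 h. Of the summed level of the 6 genes, Cdkn1b made up 73.8% to 78.6% in Young and 49.7% to 57.1% in Old, and 32.6% to 40.8% in Young PH and 17.2% to 24.1% in Old PH. Cdkn2c made up 9.08% to 12.2% in Young, 15.1% to 24.0% in Old, 42.8% to 51.1% in Young PH and 48.5% to 62.7% in Old PH. Cdkn1c, Cdkn2a and Cdkn2b were each at or below 0.653 RPKM in the 12 wild-type libraries. The summed level was 5.54 ± 0.446 RPKM in Young, 7.33 ± 0.239 in Old, 17.9 ± 3.50 in Young PH and 30.7 ± 4.23 in Old PH (SD, n = 3), and the ages did not overlap at either time (exact two-sided permutation test, p = 0.1, the smallest that 3 against 3 allows).

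**Figure D2:**
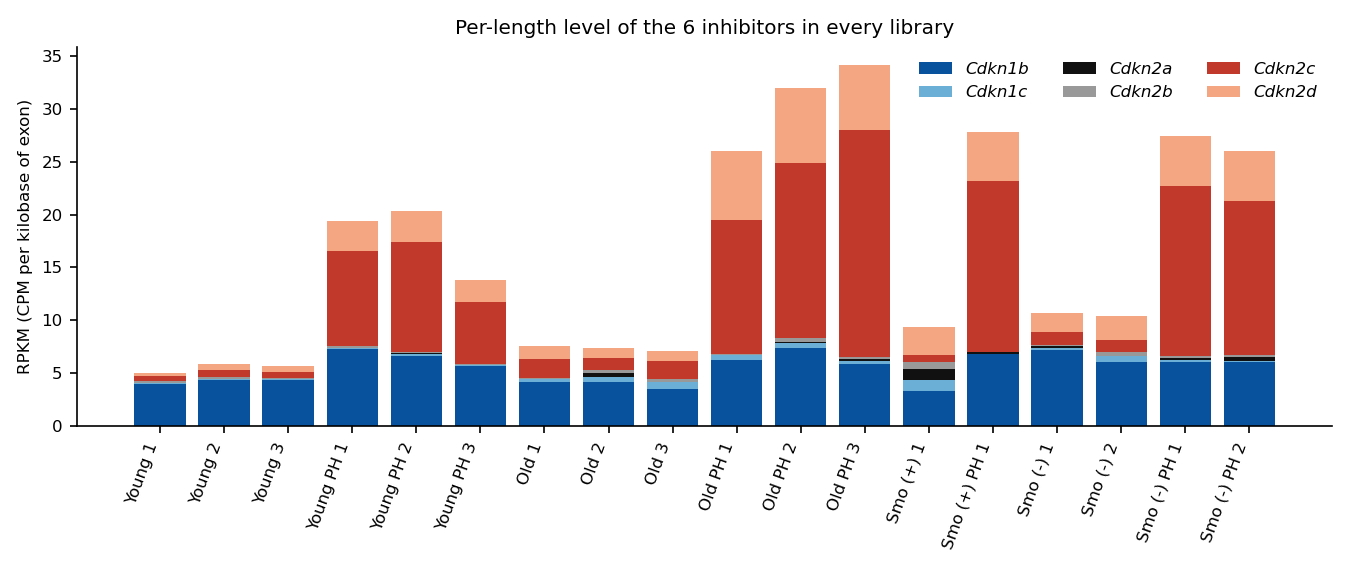
Stacked bars of the RPKM (CPM per kilobase of exon) of the 6 inhibitors in each of 18 libraries. Cdkn1b is the largest segment in every library before PH and Cdkn2c in every library at 48 h.

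Which inhibitors differ with age was asked first before PH. Of the 6 members, 5 passed the filter on low counts, which asks for 0.365 CPM of unscaled counts in 3 libraries. Cdkn1b, Cdkn2c and Cdkn2d reached it in every library, whereas Cdkn1c reached it in 0 of 3 Young and 3 of 3 Old libraries, and Cdkn2b in 0 of 3 Young and 2 of 3 Old libraries. Of the 3 members that passed in both ages, 2 were higher in old hepatocytes (Cdkn2c and Cdkn2d) and 0 were lower, while 29.3% of all 14554 genes tested were higher and 33.7% lower.

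Cdkn2c, whose product p18Ink4c restrains CDK4 and CDK6, was at 1.39, 1.93 and 1.38 CPM in Young and at 4.79, 2.97 and 4.57 CPM in Old. Every old library was above every young one, as in 30% of all genes tested. The difference was 1.40 on the log2 scale, or 2.63-fold (SE 0.292 and adjusted p = 0.000902 from edgeR). Cdkn2d was at 0.484, 0.887 and 0.960 CPM in Young and 1.91, 1.45 and 1.45 CPM in Old, again without overlap (log2 fold change 1.04, SE 0.285, adjusted p = 0.00591). With a correction for gene length the Cdkn2d difference was 0.51 and was not called (adjusted p = 0.137). Both genes were called without long noncoding and mitochondrial genes and without each library in turn.

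Cdkn1c was at 0.226, 0.253 and 0.311 CPM in Young, from 7, 8 and 11 counts, and at 0.598, 0.925 and 1.33 CPM in Old, from 10, 14 and 23 counts. These libraries did not overlap either, and differed by a log2 fold change of 1.83 (edgeR, SE 0.477, adjusted p = 0.00416). Since Cdkn1c passed the filter mainly through the old libraries, this difference is not counted with the others. Cdkn1b was not called: it was at 18, 19.8 and 19.7 CPM in Young and 18.8, 19.1 and 16.0 CPM in Old (log2 fold change -0.09, SE 0.131, adjusted p = 0.562), and the groups overlapped.

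The senescence locus gave few counts. Cdkn2a had 1, 0 and 0 counts in Young and 0, 6 and 0 in Old, so that its old counts came from 1 library. A count of 0 in the deepest young library allows up to 0.0847 CPM (3 counts) and in the deepest old library up to 0.174 CPM, and such limits cover counting error only. Pooled over 3 libraries these counts are 0.0102 CPM in Young (95% exact Poisson interval 0.000258 to 0.0569) and 0.122 CPM in Old (0.0448 to 0.266). Cdkn2a did not pass the filter, and an exact two-sided permutation test of its CPM gave p = 1. Cdkn2b had 5, 6 and 4 counts in Young and 3, 7 and 7 in Old, which are 0.113 to 0.190 and 0.180 to 0.463 CPM. It was not called (log2 fold change 1.15, SE 0.574, adjusted p = 0.0951), but was called without Old replicate 1, its lowest Old library (1.59, adjusted p = 0.0347). Since Cdkn2b reached the filter only in libraries of old mice, these differences are not counted with the others.

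Other cells moved with age as well. All 8 Kupffer cell and macrophage markers were higher in Old, and of 8 stellate cell markers 5 were higher and 1 lower. Of 8 endothelial markers 0 were higher and 1 lower, and of 8 hepatocyte markers 3 were higher and 2 lower. None of the macrophage markers was at 0 in any library, and their summed level was 63.9 to 99.3 CPM in Young and 110 to 509.7 CPM in Old. Old replicate 2, which held all 6 Cdkn2a counts of its group, had the highest sum, and Old replicate 1, lowest in Cdkn1c and Cdkn2b, had the lowest. Cdkn2c was highest in Old replicate 1. Among 14 proliferation markers, 5 were higher in Old and 1 lower, and their sum was 53.2 ± 11.7 CPM against 27 ± 2.81 in Young (SD, n = 3). Per 100 CPM of these markers, Cdkn2c came to 8.20 ± 3.55 CPM in Old and 5.81 ± 0.935 CPM in Young (exact permutation p = 0.4), and Cdkn2d to 3.22 ± 1.39 and 2.83 ± 0.702 CPM (exact permutation p = 0.8). The part of other cells, of library make-up and of cycling cells in these differences was not tested, and in bulk samples more cells of a type cannot be told apart from more RNA per cell.

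The response to PH was next compared within each age. In Young PH against Young, Cdkn2c, Cdkn2d and Cdkn1b rose, 3 of 5 members tested, beside 17.8% of all genes. In Old PH against Old the same 3 genes rose, beside 22.5% of all genes, and 0 members fell in either age.

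Cdkn2c was at 24.3, 27.9 and 15.9 CPM in Young PH and at 33.9, 44.7 and 57.5 CPM in Old PH. All 6 were above every quiescent library of their age, as in 28% of all genes tested in young and 26.3% in old hepatocytes. On the log2 scale Cdkn2c rose by 3.85 in young (SE 0.276, adjusted p = 2.18e-07) and by 3.46 in old hepatocytes (SE 0.267, adjusted p = 6.53e-07). Cdkn2d was at 4.43, 4.65 and 3.28 CPM in Young PH and 10.3, 11.2 and 9.74 CPM in Old PH. It rose by 2.39 in young (SE 0.263, adjusted p = 1.20e-05) and by 2.69 in old hepatocytes (SE 0.262, adjusted p = 4.82e-06). Cdkn1b was at 33.0, 30.2 and 25.7 CPM in Young PH and 28.5, 33.4 and 26.7 CPM in Old PH, a smaller rise with no overlap with the quiescent libraries (0.63, SE 0.128, adjusted p = 0.00174, and 0.72, SE 0.131, adjusted p = 0.000902). As a point of reference, Cdkn1a, which encodes p21Cip1, rose from 6.21 to 7.84 CPM in Young to 66.6 to 87.8 CPM in Young PH (log2 fold change 3.39, adjusted p = 9.88e-06).

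The other members were not called after PH. Cdkn1c was at 0.247, 0.437 and 0.159 CPM in Young PH and 0.807, 0.933 and 0.587 CPM in Old PH, and both groups overlapped the quiescent libraries of their age (adjusted p = 0.911 and 0.638). Cdkn2b had 7, 6 and 6 counts in Young PH and 3, 10 and 8 in Old PH (adjusted p = 0.890 and 0.928). Cdkn2a had 0, 1 and 0 counts in Young PH and 2, 4 and 3 in Old PH. Among markers of other cells, 5 of 8 endothelial markers fell in Young PH, and 7 of 8 macrophage and 8 of 8 endothelial markers fell in Old PH. Of 8 stellate cell markers, 1 rose and 2 fell in Young PH, and 0 rose and 4 fell in Old PH. Hepatocyte markers fell as well, 4 of 8 in Young PH and 5 of 8 in Old PH, and 0 rose. The part of these changes in the members' values was not tested.

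The response to PH was not found to depend on age for any of the 5 members tested, with edgeR's test of the difference of the responses. That difference was -0.40 for Cdkn2c (SE 0.368, adjusted p = 0.585) and 0.30 for Cdkn2d (SE 0.371, adjusted p = 0.699), none of the 5 had an unadjusted p under 0.05, and DESeq2 and limma-voom called 0 members as well. Of all genes, 2.27% had a higher and 0.983% a lower response in old hepatocytes, 474 genes of which 69.8% were higher. Without Old replicate 1 this balance turned, with 825 genes called and 38.4% of them higher.

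**Figure D3:**
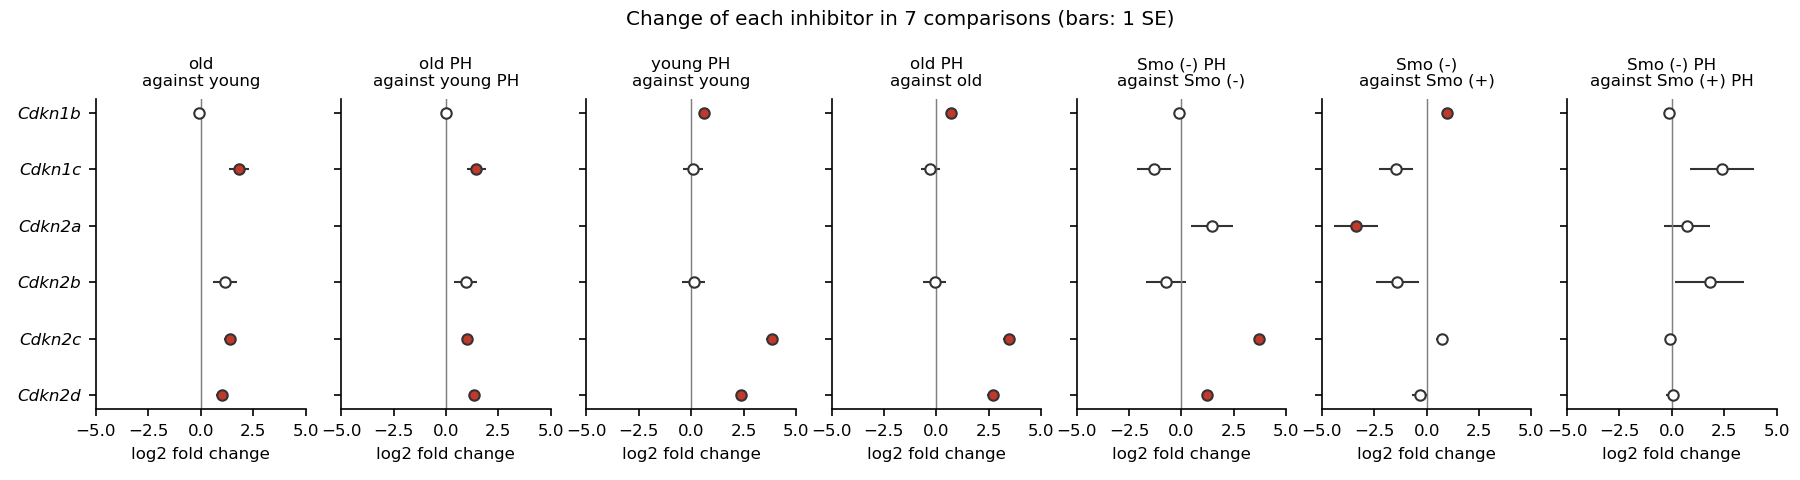
Log2 fold change of each inhibitor in 7 comparisons, with bars of 1 SE. Filled points passed an adjusted p under 0.05, open points did not, and Cdkn2a has no point where it did not pass the filter. The filled points of Cdkn1c between the ages and of Cdkn2a in Smo (-) against Smo (+) are not counted in the text. Cdkn1c passed the filter mainly through old libraries and Cdkn2a only through Smo (+). Cdkn2c, at 3.46 to 3.85, has the largest called change after PH in young, old and Smo (-) mice.

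Regenerating hepatocytes of the ages were also set side by side. In Old PH against Young PH, 2 of the 3 members that passed the filter in every library were higher (Cdkn2d and Cdkn2c) and 0 lower, beside 29.7% and 32.4% of all genes. Cdkn2d had the largest gap relative to its spread, with 9.74 to 11.2 CPM against 3.28 to 4.65 CPM (log2 fold change 1.34, SE 0.234, adjusted p = 0.000229). Cdkn2c followed with 33.9 to 57.5 against 15.9 to 27.9 CPM (1.00, SE 0.230, adjusted p = 0.00191), and neither gene's groups overlapped. With the gene-length correction these changes were 0.79 for Cdkn2d and 0.64 for Cdkn2c, both called (adjusted p = 0.00889 and 0.0217). Cdkn1c, which reached the filter in 1 of 3 Young PH and 3 of 3 Old PH libraries, differed by 1.45 (SE 0.463, adjusted p = 0.0147), but was not called without Young PH replicate 1 (adjusted p = 0.0535) or replicate 3 (adjusted p = 0.0679), or with the gene-length correction (0.99, adjusted p = 0.0895). Cdkn1b overlapped between the ages (-0.0036, SE 0.127), and Cdkn2b was not called (0.94, SE 0.541, adjusted p = 0.146). Cdkn2a counts were higher in each Old PH library (0.0950 to 0.178 CPM) than in any Young PH library (0 to 0.0257 CPM), with an exact permutation p = 0.1, the smallest possible. Of all genes tested, 32.3% were likewise higher without overlap. Pooled over the 3 libraries, Cdkn2a came to 0.141 CPM in Old PH (95% exact Poisson interval 0.0643 to 0.267, counting error only) and 0.00884 CPM in Young PH (0.000224 to 0.0493). In a fit with no filter its adjusted p was 0.0572.

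At this time the Kupffer cell and macrophage markers did not move as before PH: 1 of 8 was lower and 0 higher in Old PH, with sums of 32.4 to 94.2 CPM against 89.6 to 112 CPM in Young PH, and 4 of 8 endothelial markers were lower. Of 8 cholangiocyte markers 3 were tested, of which 2 were higher and 1 lower. The sum of all 8 was 18.8 to 41.6 CPM in Old PH and 15.7 to 25.4 CPM in Young PH, with up to 4 of them at 0 in a Young PH library. Stellate cell markers were 1 higher and 1 lower of 8. The part of these cells in the members' values was not tested. The sum of the 14 proliferation markers was 927 ± 42.8 CPM in Old PH and 909.7 ± 101 CPM in Young PH (SD, n = 3, exact permutation p = 0.9). Per 100 CPM of these markers, Cdkn2c came to 4.91 ± 1.32 CPM in Old PH and 2.47 ± 0.436 CPM in Young PH, and Cdkn2d to 1.13 ± 0.126 and 0.451 ± 0.0417 CPM (exact permutation p = 0.1 for each, the smallest possible). The marker sums overlapped between the ages, but single markers went both ways, and the part of cycling cells was not tested. The ages also differed at 48 h in the share of read pairs outside genes, whose part was not tested, and Cdkn2c and Cdkn2d were called when long noncoding and mitochondrial genes were left out. Of single markers, Foxm1 was lower in Old PH (-1.29), and Birc5 (0.78), Cdc20 (1.60) and Pcna (0.84) were higher. Mki67, named after its values were seen, was at 110 to 159 CPM in Old PH and 215 to 276 CPM in Young PH, without overlap (log2 fold change -0.82, SE 0.304, adjusted p = 0.0316).

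**Figure D4:**
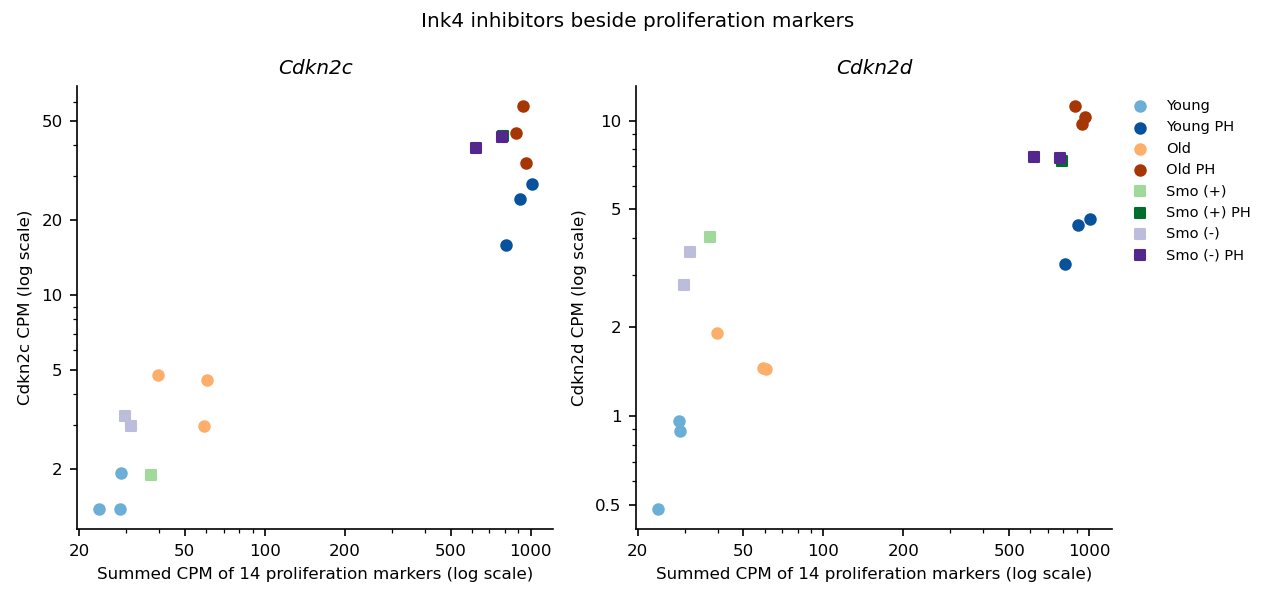
Cdkn2c and Cdkn2d in CPM against the summed CPM of 14 proliferation markers, both on log axes, 1 point per library. At 48 h the Old PH points (Cdkn2d 9.74 to 11.2 CPM) lie above the Young PH points (3.28 to 4.65 CPM) at marker sums of 809 to 1011 CPM.

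The partners of the inhibitors were examined from lists of related genes, with log2 fold changes in parentheses. The ages differed in depth and in the share of read pairs outside genes. The part of these and of gene length in the age differences of the list genes was not tested. Over all genes tested, 29.3% were higher and 33.7% lower in Old before PH, and 29.7% and 32.4% in Old PH against Young PH. Against its quiescent group, 17.8% rose and 16.4% fell in Young PH, and 22.5% and 15.1% in Old PH. A list of 12 cell cycle kinases and cyclins held genes of G1 and S phase and the mitotic Ccnb1 and Cdk1. Of these 12, 9 rose and 0 fell in Young PH, and 9 rose and 1 fell in Old PH, each against its quiescent group. Old PH against Young PH gave 3 higher and 7 lower. Cdk6, a kinase that Ink4 proteins bind, was lower, at -1.92 (SE 0.118, adjusted p = 4.60e-08), and Ccnd1, the cyclin D1 that competes with them for it, at -1.57 (SE 0.274, adjusted p = 0.000223). Ccnd1 was at 60.0 to 68.7 CPM in Old PH and 186 to 206 CPM in Young PH, with no overlap. The mitotic Ccnb1 (2.08, SE 0.284) and Cdk1 (1.55, SE 0.256) were higher.

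Of 13 retinoblastoma and E2F genes, 1 was higher and 8 lower in Old PH against Young PH, and 1 higher and 7 lower before PH. Rb1 was lower at both times (-0.83 and -1.06), as were the repressors E2f7 (-2.27 and -3.08) and E2f8 (-1.82 and -1.95). Of 15 genes of p27 turnover and transcription, 8 were higher and 6 lower in Old before PH, while Cdkn1b itself was not called. Of the Foxo factors that drive Cdkn1b, Foxo3 (-1.73, SE 0.147) and Foxo1 (-1.06, SE 0.197) were lower and Foxo4 higher (0.92, SE 0.131). Skp2 and Cks1b, which mark p27 for destruction, rose after PH in young (1.93 and 2.01) and old hepatocytes (1.79 and 2.25) beside the rise of Cdkn1b mRNA.

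Of 17 Polycomb and T-box repressors of the Cdkn2a and Cdkn2b locus, 3 were higher and 3 lower in Old, and 6 rose and 3 fell in Young PH, among the former Ezh2 (2.44, SE 0.183). Of 12 further regulators of the locus, mostly activators, 1 was higher and 6 lower in Old. The higher gene was Id1 (2.75, SE 0.472), known to hold back p16Ink4a by blocking Ets factors, and the lower ones included the histone demethylase Kdm6b (-2.45, SE 0.147) and Dmtf1, which switches on Arf (-1.53, SE 0.139). Of 9 genes of the p53 axis, 2 were higher and 5 lower, with Huwe1, a ubiquitin ligase that Arf binds, at -2.31 and Mdm4 at -1.76. Of 25 senescence and secretory genes, 18 were tested and 7 were higher and 2 lower in Old. The higher ones included the death receptor Fas (1.17) and the chromatin proteins Hmgb2 (1.43) and Hmgb1 (0.71), whose loss from the nucleus is known in senescent cells. Cdkn1a, also on that list, was at 6.21 to 7.84 CPM in Young and 2.81 to 13.7 CPM in Old (adjusted p = 0.442).

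Across the 12 wild-type libraries, Cdkn2c and Cdkn2d had alike profiles (Pearson r = 0.972 of log2 CPM), and Cdkn1b correlated with them at 0.865 and 0.845. Cdkn1c and Cdkn2b had r = 0.689 with each other. These values describe libraries that share age, time and depth. The gene most like Cdkn2c was the telomere protein gene Tinf2 (r = 0.992), followed by Lsm3, of RNA processing (0.990), and the microtubule regulator Stmn1 (0.988). Cdkn2d was closest to the centromere genes Cenps (0.989) and Cenpl (0.984) and to Serpinb8 (0.984), Cdkn1b to Suco (0.961), Cdkn1c to Gpm6a (0.932), and Cdkn2b to Ccdc126 (0.922).

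The effect of deleting Smo was asked in quiescent and in regenerating hepatocytes. All 6 members passed the filter of this table, but Cdkn2a and Cdkn2b did so only through the Smo (+) library and are described without being counted. Of the other 4 members, 1 was higher in Smo (-) before PH and 0 lower, beside 13.9% and 13.5% of the 13654 genes tested. Cdkn1b was at 15.2 CPM in Smo (+) and at 32.7 and 27.7 CPM in Smo (-), which bracket the 30.8 CPM of Smo (+) PH (log2 fold change 0.99, SE 0.212, adjusted p = 0.0114). Cdkn2a had 16 counts in Smo (+), 1.27 CPM, and 3 and 1 counts in Smo (-), 0.170 and 0.0609 CPM (-3.36, SE 1.04, adjusted p = 0.0401). That direction is fixed by the lone Smo (+) library through which the gene passed the filter, and the call ended without either Smo (-) replicate (adjusted p = 0.0539 and 0.0704) or with the gene-length correction (adjusted p = 0.0542). A filter of CPM above 1 removed the gene, and DESeq2 gave it no adjusted p.

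The remaining members were not called before PH, although for each of them both Smo (-) libraries lay on the same side of the control. Over all genes, 42.7% lay above it and 44.3% below it in both libraries. Cdkn1c was at 2.06 CPM in Smo (+) and 0.453 and 1.04 CPM in Smo (-) (adjusted p = 0.208), and Cdkn2b at 0.870 and 0.170 and 0.487 CPM (adjusted p = 0.329). Cdkn2c went the other way, with 1.90 CPM in Smo (+) and 3.28 and 2.99 CPM in Smo (-) (0.72, SE 0.297, adjusted p = 0.0978). Cdkn2d was at 4.03 CPM and at 2.77 and 3.60 CPM (adjusted p = 0.477).

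The Smo (+) library with the highest Cdkn2a, Cdkn2b and Cdkn1c also had the highest sums of macrophage, endothelial and lymphocyte markers of its table. All 8 macrophage and all 8 endothelial markers were lower in Smo (-), with macrophage sums of 583 CPM in Smo (+) and 112 and 164 CPM in Smo (-), and endothelial sums of 779 against 136 and 271 CPM. Lymphocyte markers summed to 12.8 CPM against 1.98 and 3.05 CPM. The part of these cells and of the mitochondrial share in the values of this library was not tested. With 1 control library, a p assumes that it varies like the others.

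The list genes were read in the same comparison, where 13.9% of all genes were higher and 13.5% lower. They rest on the same single Smo (+) library, and the part of its other cells and mitochondrial share in them was not tested. Of 15 genes of p27 turnover and transcription, 6 were higher in Smo (-) and 0 lower, beside the higher Cdkn1b. They included Cops5 (1.21, SE 0.232, adjusted p = 0.00846), Foxo3 (0.99, SE 0.199, adjusted p = 0.00940), the ubiquitin ligase gene Rnf123 (0.88) and Skp1a (0.83). Of 12 further regulators of the Ink4 and Arf locus, Jun (2.59) and Junb (1.74) were higher and Ets1 (-2.01) and Ets2 (-1.11) lower. Of 17 Polycomb and T-box genes, 2 were higher and 2 lower, among the latter Tbx2, a repressor of the locus (-2.12). Of 19 senescence and secretory genes tested, 0 were higher and 4 lower: Il1a (-2.43), Il1b (-3.94), Fas (-1.04) and Cdkn1a (-1.44). Among 14 proliferation markers, 0 were higher and 5 lower, with Mki67 at -1.98.

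At 48 h, 0 of the 4 counted members were called in Smo (-) PH against Smo (+) PH, beside 0.0366% of all genes higher and 0.0879% lower. Cdkn2a and Cdkn2b were not called either. DESeq2, with an adjusted p for 3 of the 6 members, and limma-voom called 0 as well. In the edgeR fit 0 of the 6 members had an unadjusted p under 0.05, beside 796 of the 13654 genes tested. Cdkn2c was at 43.5 CPM in Smo (+) PH and 43.3 and 39.2 CPM in Smo (-) PH (log2 fold change -0.0786, SE 0.193). Cdkn2d was at 7.30 CPM and at 7.50 and 7.51 CPM (0.0390, SE 0.306). Cdkn1b was at 30.8 CPM and at 27.4 and 27.7 CPM (-0.16, SE 0.194). Cdkn1c had 1 count in Smo (+) PH and 9 and 3 in Smo (-) PH, Cdkn2a had 4 against 5 and 9, Cdkn2b had 1 against 3 and 5, and no difference was detectable at this depth.

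In the Smo-deleted mice PH raised 2 of the 4 counted members, beside 16% of all genes. Cdkn2c rose by 3.71 on the log2 scale (SE 0.191, adjusted p = 4.48e-06) and Cdkn2d by 1.24 (SE 0.265, adjusted p = 0.00747), while Cdkn1b, already at 27.7 to 32.7 CPM, was not called (-0.13, SE 0.160). All 8 macrophage markers rose too, and their part was not tested. All 14 proliferation markers rose, and 10 of 12 kinases and cyclins rose with 0 lower, among them Cdk1 (5.65) and Ccna2 (5.84). From Smo (+) to Smo (+) PH, with 1 library each and no test, Cdkn2c went up 22.9-fold (95% counting interval 15.3 to 36.0), Cdkn1b 2.03-fold (1.72 to 2.40) and Cdkn2d 1.81-fold (1.31 to 2.54). Cdkn1c went from 26 counts to 1, Cdkn2b from 11 to 1 and Cdkn2a from 16 to 4, ratios of 41.1 (6.75 to 1685), 17.4 (2.53 to 748) and 6.32 (2.04 to 26.0) between the CPM before and after PH.

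The difference between the responses of Smo (-) and Smo (+) was tested after these values had been seen. Of the counted members 1 was called, beside 4.6% of all genes with a higher and 6.14% with a lower response in Smo (-). Cdkn1b responded less in Smo (-), by -1.15 (SE 0.284, adjusted p = 0.0388). It was not called with upper-quartile factors (-0.98, adjusted p = 0.0591), with DESeq2 (-1.11, adjusted p = 0.0647), or without either Smo (-) PH replicate (adjusted p = 0.0683 and 0.0619). Cdkn2c had a difference of -0.80 (SE 0.355, adjusted p = 0.156) and Cdkn2d of 0.38 (SE 0.460, adjusted p = 0.601).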

How the data were processed

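RNA was measured in hepatocytes of 18 mice, 12 wild-type and 6 Smo-floxed. The authors deposited raw counts of read pairs per gene in a table for each set of mice, made from poly A RNA and paired reads of 150 bases with Trim Galore, STAR 2.5.0c on mm10, SAMtools, duplicate removal in Picard, and HTSeq. The strand setting and annotation release are not given in the sources used here. Rows that name no gene were left out of totals and give the shares outside genes printed in the text. Gene names in the Smo table matched their identifiers in 1.53% of rows, against 97.1% in the other table, so that genes were taken there by Ensembl identifier. Positions and exon lengths are from GENCODE M21 (GRCm38), and 31011 of 31053 identifiers matched.

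Each table was fitted once with edgeR 4.0.16 in R 4.3.3 (quasi-likelihood test, TMM factors, a low-count filter with minimum count 10 and minimum total 15), and the tables were scaled separately. This tested 14554 genes with 8 residual degrees of freedom in the wild-type table, and 13654 genes with 2 in the Smo table. Benjamini-Hochberg adjustment ran over all genes tested, and an adjusted p under 0.05 was called. Adjusted p-values in the text are from this test unless another is named. The script was tested on simulated data. Alternatives were RLE and upper-quartile factors, no filter, CPM above 1, DESeq2 1.42.0, limma-voom (limma 3.58.1), leaving out long noncoding and mitochondrial genes, a gene-length correction (a lowess trend with a span of 0.3), a replicate block, only the groups compared, and leaving out each mouse. The difference of the Smo responses was added after seeing the data.

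The members and gene lists were chosen with earlier results of these data known. Named from each gene list were at most 4 genes per comparison, those with the smallest adjusted p among the called. Foxo1 in Old against Young and Mki67 in Old PH against Young PH were named outside this rule. Cdkn1a and Smo were reference points. For each member tested in the wild-type table, the 3 genes with the highest Pearson r of log2 CPM (prior count 2) were taken. Replicates are separate mice, and replicates differed by more than sampling noise (chi-square per degree of freedom of 26.2 to 112 within groups).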

Additional observations from a re-analysis of the deposited data

Results flagged for a closer look

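Cdkn1b was picked out because its response to PH differed between Smo (-) and Smo (+) by a test of the difference itself, at -1.15 on the log2 scale (SE 0.284, adjusted p = 0.0388 by edgeR's quasi-likelihood test). Cdkn1b was at 15.2 CPM in Smo (+) and 30.8 CPM in Smo (+) PH, and at 32.7 and 27.7 CPM in Smo (-) and 27.4 and 27.7 CPM in Smo (-) PH. That test was added after these values had been seen. Cdkn1b was not called in it with upper-quartile factors, with DESeq2 or without either Smo (-) PH replicate. The difference rests on the single Smo (+) library, whose mitochondrial share was 22.5%. Its macrophage and endothelial marker sums, 583 and 779 CPM, were also the highest of its table. The part of that share and of other cells in the difference was not tested.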

How the results depend on the processing

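Of 642 tested values recomputed for the members, 611 kept their direction and side of the threshold, and 31 did not. Directions that turned were all of changes that were not called. The untested CPM difference of Cdkn2a ranged over left-out mice from -0.0108 to 0.188 in old against young, negative only without Old replicate 2, from -0.0108 to 0.00857 in Young PH against Young, and from -0.0585 to 0.140 in Old PH against Old, where it also turned with upper-quartile factors (-0.0159). In Old PH against Young PH it stayed at 0.112 to 0.154. Cdkn1b turned in old against young with upper-quartile factors (0.0489) and ranged from -0.114 to 0.0821 over left-out mice. In Old PH against Young PH it turned with no filter (0.0278) and with only the groups compared (0.0181), and ranged from -0.0944 to 0.0769 over left-out mice. In the age difference of responses it turned with upper-quartile factors (-0.0845), and ranged from -0.0272 to 0.172. Cdkn1c turned in Young PH against Young with limma-voom (-0.0238), and ranged over left-out mice from -0.37 to 0.384 there and from -0.696 to 0.0789 in the age difference of responses. Cdkn2b ranged from -0.485 to 0.278 in Old PH against Old, from -0.591 to 0.155 in the age difference of responses and from -1.32 to 0.161 in Smo (-) PH against Smo (-). Cdkn2d turned in Smo (-) PH against Smo (+) PH with the gene-length correction (-0.0517).

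Cdkn2a passed the filter of the Smo table only through Smo (+) and is not counted above. Its call in Smo (-) against Smo (+) was lost with CPM above 1, DESeq2, the gene-length correction and either Smo (-) replicate left out. Cdkn1b was then the only member called. The members called in the Smo difference of responses went from 1 to 0 with upper-quartile factors, DESeq2 and either Smo (-) PH replicate left out. Over all genes, the age difference of responses went from 474 calls to 246 with upper-quartile factors, 1105 with DESeq2 and 60 to 825 over left-out mice. Smo (-) PH against Smo (+) PH went from 17 to 3 (upper-quartile), 179 (no filter), 5 (CPM above 1), 51 (DESeq2) and 53 to 104 over left-out mice. Smo (-) PH against Smo (-) went from 4124 to 2482 to 4343 over left-out mice, lowest without Smo (-) PH replicate 2. The Smo difference of responses went from 1466 to 665 (upper-quartile), 2991 (no filter) and 1267 to 3751 over left-out mice, highest without Smo (-) replicate 2. The cause was not tested.

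With upper-quartile factors the share of calls that were higher went from 59.8% to 41.0% in Old PH against Old, from 69.8% to 37.8% in the age difference of responses, from 50.6% to 39.1% in Smo (-) against Smo (+), and from 42.8% to 58.5% in the Smo difference of responses. The age difference of responses also went to 54.8% with no filter, 56.7% with DESeq2 and 57.9% with the gene-length correction, and to 38.4% without Old replicate 1 and 80.0% without Young replicate 1, and Smo (-) PH against Smo (+) PH from 29.4% to 0% with upper-quartile factors. The median of all genes moved to -0.136 with these factors in Smo (-) against Smo (+), and to 0.191 in the Smo difference of responses. Replicate numbers were not taken to pair the mice, and 2 of 20 correlations of deviations were over 0.1 (-0.112 to 0.226). Deviations within such small groups are not independent, so that these values cannot settle whether mice were paired. A replicate block changed no member call and gave 9007, 4722, 5248 and 8853 calls over all genes in the wild-type comparisons, 324 in the age difference of responses and 4585 in Smo (-) PH against Smo (-). The Smo (+) mice carry no number, so that no block could be fitted with them. Cdkn2a and Cdkn2b, with at most 16 counts in a library, are limited by depth.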
